A study of Homo sapiens with 8 samples.

Results

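The regions described here lie in 5 windows of the human genome (hg19) named for the genes DGKB, BMP5, SUCLG1, FAM101A and KDM4C. The BMP5 window takes in sequence upstream of the gene, and the SUCLG1 and KDM4C windows take in flanking sequence. The windows hold some of the largest gains of the histone mark H3K27me3 in cells without RING1A and RING1B. All regions of the deposited table that overlapped a window by at least 1 base were taken, 60 of 34703 in all: 12 in the DGKB window, 13 in the BMP5 window, 14 in the SUCLG1 window, 3 in the FAM101A window and 18 in the KDM4C window. The windows were chosen by the measured H3K27me3 change, as places with the largest rise in knockout against wild type over the same 4 libraries, so its values are given below as a description, and nothing is read from the counts of H3K27me3 calls. H2AK119ub did not choose the windows and is tested. The cells were HAP1, an established near-haploid line derived from the chronic myelogenous leukaemia line KBM-7. The edited group is labelled RING1A/B-DKO, and was made from RING1A knockout cells with a CRISPR-Cas9 nickase and guides against RNF2, the gene of RING1B. The other group is labelled Wild-type-control. Chromatin immunoprecipitation and sequencing (ChIP-seq) gave 2 libraries for each of 2 marks in each genotype, 4 groups in all. Sorted single cells were grown into clones, and the sources used here do not give how many clones, or separate cultures, the libraries of a group came from. All spreads and p-values below therefore measure the spread between libraries, which may be technical. For H3K27me3 the sample labels name an Active Motif antibody and the written protocol a Cell Signaling Technology antibody.

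RING1A and RING1B are the E3 ligases of Polycomb repressive complex 1, which attaches ubiquitin to histone H2A to make H2AK119ub. Polycomb repressive complex 2 trimethylates histone H3 to make H3K27me3. Both marks are found over silent developmental genes, the complexes can each bind the mark of the other, and CpG-rich promoters are the sites where they gather most densely in mammalian cells.

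The 5 genes have unrelated roles. DGKB encodes a diacylglycerol kinase, a lipid-signalling enzyme best known from neurons. BMP5 encodes a secreted bone morphogenetic protein, a ligand of the TGF-beta family. SUCLG1 encodes the alpha subunit of the mitochondrial succinyl-CoA ligase of the citric acid cycle. FAM101A, now named RFLNA, encodes refilin A, a partner of the actin cross-linker filamin. KDM4C encodes a histone demethylase that acts on trimethylated lysine 9 of H3. The RefSeq gene table (GRCh38.p14) named all 5 genes. The regions themselves carry no gene names, and an hg19 annotation was not used here, so whether a region lies in an exon, an intron or between genes was not determined.

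The promoters are shown because CpG content is the sequence feature most often tied to Polycomb marks, and these genes differ widely in it. RefSeq promoters (GRCh38.p14) were matched by symbol for 4 of the 5 genes. Each runs from 250 bases before to 50 bases after an annotated start, on the strand of the gene, with every CG in capitals; for DGKB, which had 3 entries, the first is printed.
DGKB (chr7:14903607-14903906, minus strand): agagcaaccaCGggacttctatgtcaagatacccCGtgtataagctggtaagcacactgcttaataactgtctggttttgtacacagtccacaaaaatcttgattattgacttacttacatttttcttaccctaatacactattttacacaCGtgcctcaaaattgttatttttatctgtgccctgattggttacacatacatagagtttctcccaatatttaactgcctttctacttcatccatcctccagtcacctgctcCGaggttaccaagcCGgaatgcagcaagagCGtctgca
BMP5 (chr6:55875541-55875840, minus strand): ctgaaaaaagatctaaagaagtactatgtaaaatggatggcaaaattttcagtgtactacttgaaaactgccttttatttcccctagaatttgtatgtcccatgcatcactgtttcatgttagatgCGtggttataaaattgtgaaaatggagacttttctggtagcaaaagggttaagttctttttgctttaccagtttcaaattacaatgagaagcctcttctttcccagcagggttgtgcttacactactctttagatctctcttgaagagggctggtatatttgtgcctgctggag
SUCLG1 (chr2:84459231-84459530, minus strand): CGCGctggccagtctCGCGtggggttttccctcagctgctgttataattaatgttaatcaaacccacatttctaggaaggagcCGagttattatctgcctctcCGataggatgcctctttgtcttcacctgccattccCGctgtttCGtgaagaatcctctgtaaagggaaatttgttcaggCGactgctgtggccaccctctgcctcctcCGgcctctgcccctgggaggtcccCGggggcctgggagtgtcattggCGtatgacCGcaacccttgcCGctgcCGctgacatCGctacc
KDM4C (chr9:6757723-6758022, plus strand): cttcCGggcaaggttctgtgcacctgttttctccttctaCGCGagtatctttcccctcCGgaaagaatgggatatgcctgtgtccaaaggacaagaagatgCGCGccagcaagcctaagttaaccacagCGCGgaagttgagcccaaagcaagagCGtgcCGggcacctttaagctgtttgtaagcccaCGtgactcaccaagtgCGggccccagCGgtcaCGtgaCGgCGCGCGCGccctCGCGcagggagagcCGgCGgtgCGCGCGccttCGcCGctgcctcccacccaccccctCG

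The motif searched was CG, which reads the same on both strands. The BMP5 promoter held 1 CG, and 96.0% of the 35116 promoters in the table held at least as many. The DGKB promoter held 6, which 66.3% reached, and its other entries held 8 and 1. SUCLG1 had 16, which 47.5% reached, and KDM4C had 29, which 24.2% reached. The median promoter held 14. These positions are on GRCh38.p14 and those of the regions on hg19, so it was not determined which region, if any, holds a promoter, and the counts describe the genes alone.

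Across the 60 regions, H3K27me3 in the double knockout stood near the level of the rest of the genome's regions, while in wild type it stood far below. Knockout density over the windows was 7.25 ± 1.01 normalized counts per kb (SD, n = 2), and wild-type density was 2.37 ± 0.178 (SD, n = 2). In the 34643 regions outside the windows the densities were 7.63 ± 0.867 in the knockout and 5.28 ± 0.0968 in wild type (SD, n = 2 each). The windows were thus 3.06 times as high in the knockout as in wild type, or 2.62 to 3.55 times for the 4 pairs of libraries, against 1.45 times for the other regions. In the knockout 42 of the 60 regions lay above the median density of all regions (6.44 normalized counts per kb), and in wild type 56 lay below it (4.89). Over the 60 regions Spearman's rho of the log2 fold change was 0.440 with knockout density and -0.910 with wild-type density. Each density is a term of the change it is set against, the windows were chosen by that change and the regions share all 4 libraries, so these coefficients are a description. Over all 32209 tested regions the same coefficients were 0.713 and -0.836.

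**Figure D1:**
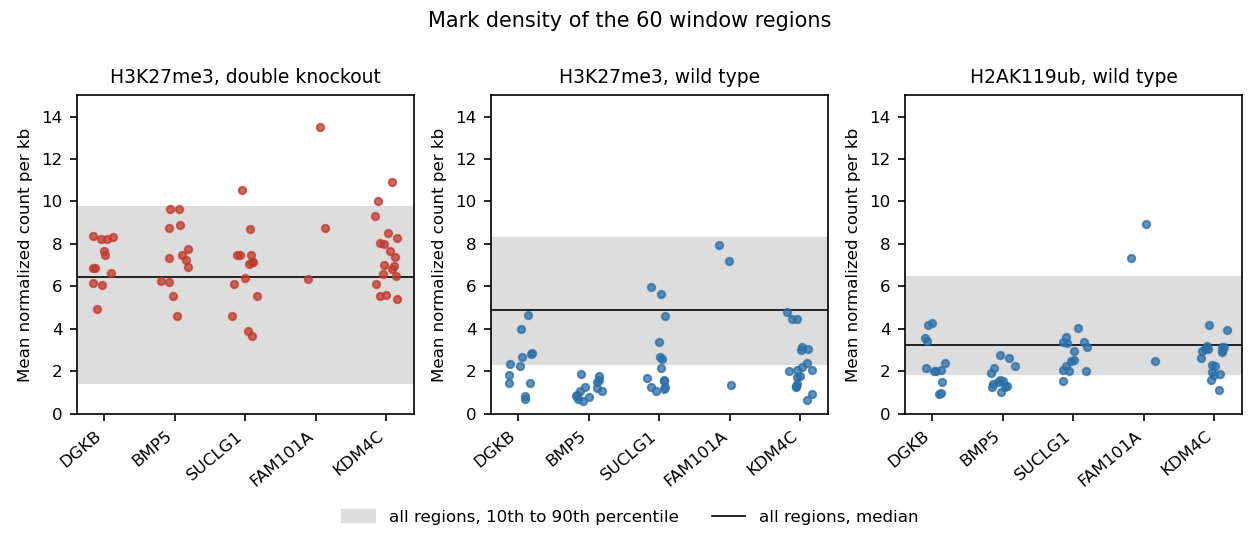
Mean density of 2 libraries (normalized counts per kb, vertical axes) for each of the 60 regions, by window (horizontal axes): H3K27me3 in the double knockout (left), H3K27me3 in wild type (middle) and H2AK119ub in wild type (right). The grey band and black line give the 10th to 90th percentile and the median of all regions; knockout H3K27me3 scatters around its median of 6.44, wild-type H3K27me3 lies below 4.89 in 56 regions, and 1 FAM101A region stands out at 13.5 in the left panel and 8.93 in the right.

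All 60 regions passed the filter on low values for H3K27me3, and log2 fold changes (knockout minus wild type, log2(normalized count + 1) scale) ran from -0.70 to 3.47 with a median of 1.87, against a median of 0.58 over all tested regions. A change above 3 was found in 8 of them and in 41 regions of the whole table; one above 2 was found in 24 and in 920. By limma with Benjamini-Hochberg adjustment at 0.05, 52 were called higher and 1 lower, where 47.3% of all tested regions were called higher and 22.8% lower. Both knockout libraries lay above both wild-type libraries in 55 of the 60, and in 53.3% of all regions. Since the same contrast placed the windows, nothing is read from these counts. Some regions also passed the filter only through their knockout values, which favours a higher call. An example is the KDM4C region from 7929201, with 20 and 12 in the knockout and 2 and 0 in wild type. Without knockout replicate 1 the number called higher was 16, where 4467 of all 32209 tested regions were, and without knockout replicate 2 it was 26, where 8148 were. Without either wild-type library it was 0, in the windows as in the whole table, where the smallest adjusted p of any region was then 0.0836 (without replicate 1) or 0.0811 (without replicate 2). Over the 4 fits that leave out 1 library, log2 fold changes in the highest region of each window ran from 2.46 to 4.05, both in the KDM4C window. For SUCLG1 they ran from 3.05 to 3.21. The same libraries picked these regions, so the values are a description. The 1 region called lower, the SUCLG1 region from 84601401, had log2 fold changes from -0.96 to -0.44 over these 4 fits. It stood at -0.70 with all libraries. Scaled by column totals it was -1.22 (limma adjusted p = 4.8e-16), and by median-of-ratios factors -1.20 (1.4e-15). These scalings also lowered the median of all tested regions, by -0.51 and -0.50.

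The BMP5 window showed the most uniform gain. All 13 of its regions, spread over chromosome 6 from 55607601 to 55838800, had log2 fold changes between 1.81 and 3.29. Both knockout libraries lay above both wild-type libraries in each of the 13, as they did in 53.3% of all regions. Summed over the window, H3K27me3 was 633 and 514 normalized counts in the knockout libraries, against 84 and 96 in wild type, a ratio of 6.37 that ran from 5.35 to 7.54 over pairs of libraries. Wild-type density, at 1.09 ± 0.103 normalized counts per kb (SD, n = 2), was the lowest of the 5 windows, and knockout density was 6.98 ± 1.02 (SD, n = 2).

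Within the BMP5 window the largest change was in the region from 55794001 to 55804600 (10.6 kb), with 103 and 82 normalized counts in the knockout libraries and 8 and 9 in wild type. Its log2 fold change of 3.29 ranked 6 of 32209. The neighbour before it, from 55782801 to 55786200 (3.4 kb), had 29 and 18 in the knockout and 2 and 2 in wild type. The neighbour after it, from 55813801 to 55815200 (1.4 kb), had 11 and 16 in the knockout and 5 and 0 in wild type, and its log2 fold change of 2.54 ran from 1.25 to 3.84 when 1 library was left out. Even the smallest change of the window, in the region from 55639201 to 55651400 (12.2 kb), stood at 68 and 44 in the knockout and 17 and 13 in wild type. The knockout pair lay above the wild-type pair at each of these sites, with the fewest counts between them in the region from 55813801. The region densest in wild-type H2AK119ub, from 55674401 to 55676400 (2 kb), held 15 and 16 of H3K27me3 in the knockout and 4 and 1 in wild type.

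H3K27me3 was also higher in the knockout before the BMP5 window, and after it the regions went both ways. In the 250 kb before it, 6 regions together held 241 and 232 normalized counts of H3K27me3 in the knockout and 45 and 37 in wild type, a ratio of 5.77, with log2 fold changes between 1.65 and 2.99. In the 250 kb after it, 3 regions held 83 and 70 in the knockout and 39 and 26 in wild type, a ratio of 2.35, but their log2 fold changes ran from -2.86 to 2.23. The rest of chromosome 6 had a ratio of 1.45.

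The DGKB window held a region whose log2 fold change ranked 2 of 32209. That region, from 14620601 to 14631800 on chromosome 7 (11.2 kb), had 97 and 89 normalized counts in the knockout libraries and 5 and 11 in wild type, with a log2 fold change of 3.47. Its neighbour before it, from 14587601 to 14597400 (9.8 kb), had 52 and 45 in the knockout and 8 and 8 in wild type. After it, the region from 14678201 to 14683800 (5.6 kb) had 56 and 36 in the knockout and 11 and 14 in wild type. In all 3, both knockout libraries lay above both wild-type libraries, as they did in 53.3% of all regions. The knockout densities of the 3 were 8.30, 4.95 and 8.21 normalized counts per kb, and those of the other 9 regions ran from 6.07 to 8.37. The highest log2 fold change thus did not stand out by its knockout density.

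Changes in the DGKB window differed along it. The first 405 kb of the 810 kb window held no region. Of the 12 regions that followed, the 3 with a log2 fold change above 2 lay between 14587601 and 14718800, and the last 4, from 14858001 to 14962800, had changes between 1.00 and 1.36. The smallest change, 0.72, was in the region from 14754001 to 14756800 (2.8 kb), with 20 and 23 normalized counts in the knockout and 16 and 10 in wild type. That region was also the densest in wild-type H2AK119ub of the window, at 4.29 normalized counts per kb. Over the whole window the sums were 695 and 569 in the knockout and 216 and 191 in wild type, a ratio of 3.11. The 4 regions in the 810 kb before the window had a ratio of 3.32, on sums of 106 and 103 in the knockout and 24 and 39 in wild type. The 7 regions in the 810 kb after it had a ratio of 1.62, on 200 and 180 in the knockout and 111 and 124 in wild type, and the log2 fold changes of those tested ran from -2.22 to 2.41. The rest of chromosome 7 had a ratio of 1.21.

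**Figure D2:**
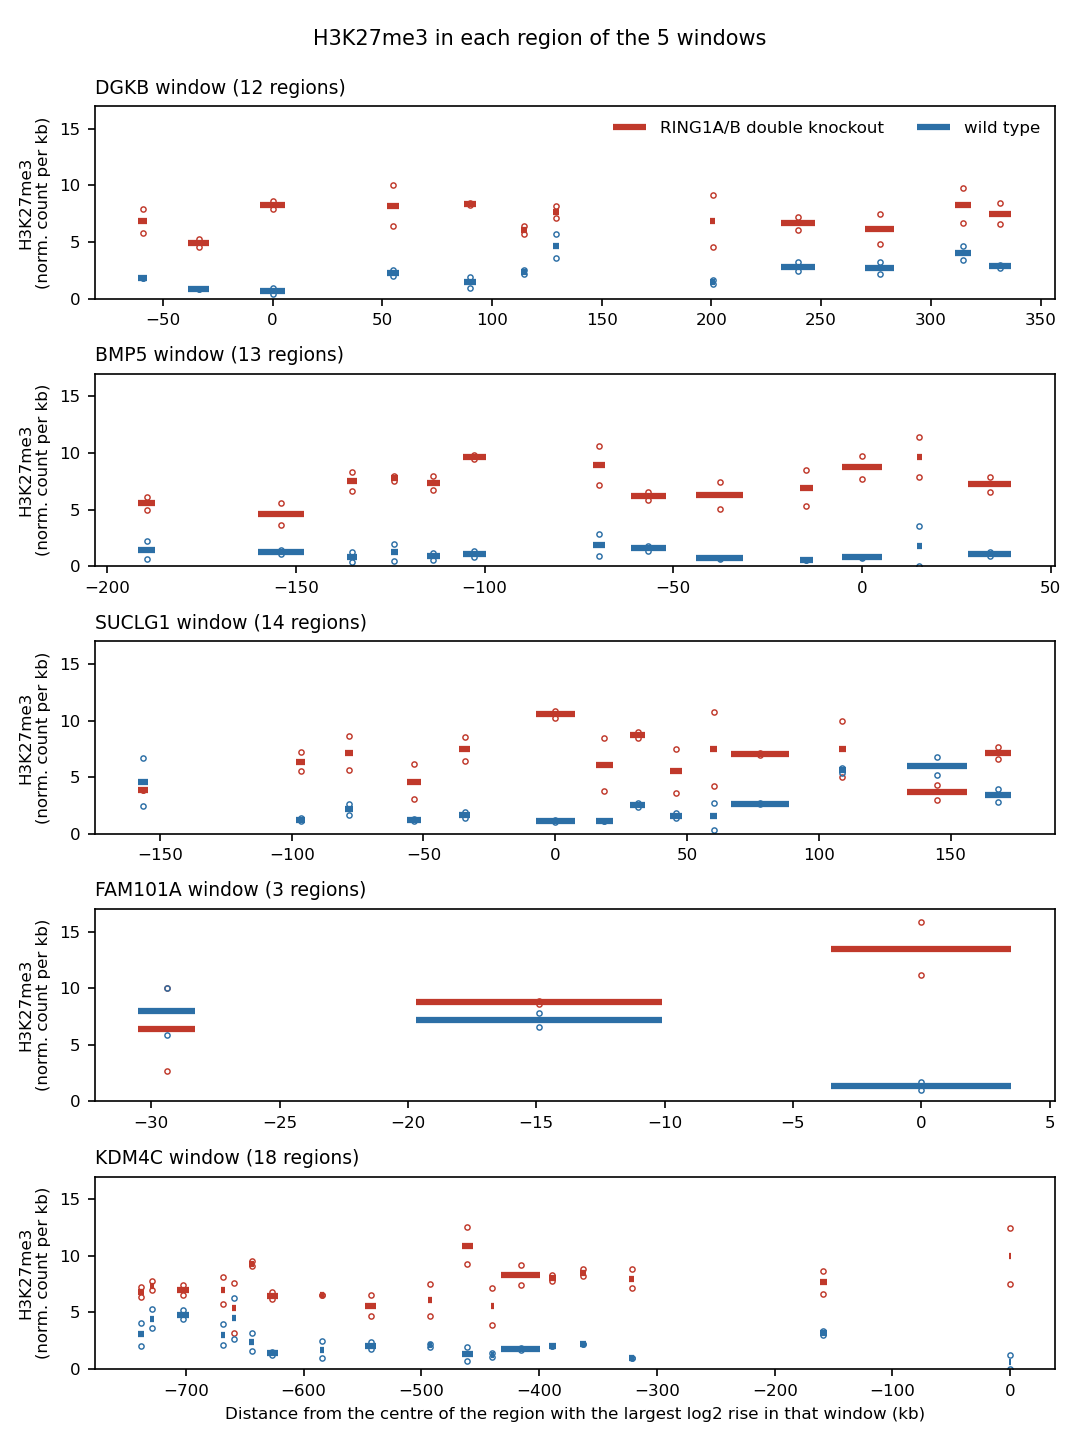
H3K27me3 density (normalized counts per kb, vertical axes) along each window, against the distance in kb from the centre of the region with the largest log2 fold change there (horizontal axes, a different scale in each panel). Bars span each region at the mean of 2 libraries and open circles give the libraries, with the double knockout in red and wild type in blue; knockout bars of the DGKB window lie between 4.95 and 8.37, and in the FAM101A window the pair is far apart only in the region at 0.

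The SUCLG1 window mixed large gains with regions that did not gain. Its highest region, from 84460401 to 84475200 on chromosome 2 (14.8 kb), had 161 and 151 normalized counts in the knockout and 18 and 16 in wild type, a log2 fold change of 3.13. In the knockout its density of 10.5 normalized counts per kb stood at percentile 93.7 of all regions. The neighbour before it, from 84431401 to 84435600 (4.2 kb), had 27 and 36 in the knockout and 6 and 8 in wild type. The neighbour after it, from 84483201 to 84489600 (6.4 kb), had 54 and 24 in the knockout and 7 and 7 in wild type. Both neighbours were thus higher in the knockout too, at densities of 7.50 and 6.09 normalized counts per kb there.

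In 1 region toward the far end of the SUCLG1 window the order turned. The region from 84601401 to 84624200 (22.8 kb) had 99 and 69 normalized counts in the knockout and 118 and 154 in wild type, a log2 fold change of -0.70. It had the highest wild-type H3K27me3 density of the window, 5.96 normalized counts per kb. The last region of the window, from 84630801 to 84640800 (10 kb), was again higher in the knockout, with 77 and 66 against 28 and 40 in wild type. At the other end the region from 84309601 to 84313200 (3.6 kb) had 14 and 14 in the knockout and 9 and 24 in wild type, so its groups overlapped. Those of the region from 84575601 to 84578000 (2.4 kb) overlapped as well, with 24 and 12 in the knockout and 13 and 14 in wild type; both regions were chosen after their values were seen. The region densest in wild-type H2AK119ub, from 84526601 to 84529200 (2.6 kb), had 28 and 11 of H3K27me3 in the knockout and 1 and 7 in wild type. Over the window, H3K27me3 summed to 798 and 663 in the knockout and 295 and 370 in wild type, a ratio of 2.20. The equal length before the window had a ratio of 0.714, with log2 fold changes from -1.64 to 1.85, and that after it 1.94, with log2 fold changes from -0.06 to 1.55.

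In the FAM101A window the large gain lay in 1 of 3 regions, although they are close together. The region from 124777801 to 124784800 on chromosome 12 (7 kb) had 111 and 78 normalized counts in the knockout and 12 and 7 in wild type, a log2 fold change of 3.21. Only 6.6 kb before it, the region from 124761601 to 124771200 (9.6 kb) had 83 and 85 in the knockout and 75 and 63 in wild type, a log2 fold change of 0.29 that turns to -0.22 with median-of-ratios factors. The region from 124750801 to 124753000 (2.2 kb) had 22 and 6 in the knockout and 22 and 13 in wild type, so its groups overlapped. Without the highest region the ratio over the window was 1.13, and with it 2.01. In the region before the window, from 124738201 to 124745800, H3K27me3 was 53 and 51 in the knockout and 90 and 66 in wild type.

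The gaining FAM101A region combined much H2AK119ub with little H3K27me3 in wild type. Its knockout H3K27me3 density of 13.5 normalized counts per kb was at percentile 98.6 of all regions and the highest of the 60. Its wild-type H2AK119ub density of 8.93 was at percentile 96.4 and also the highest of the 60, while its wild-type H3K27me3 density of 1.36 was at percentile 1.64. The other 2 regions of the window had wild-type H3K27me3 densities of 7.95 and 7.19. Their wild-type H2AK119ub densities were 2.50 and 7.34, the latter at percentile 93.2, so high H2AK119ub was shared with a region that changed little. In wild type the 7 kb region therefore held much H2AK119ub and little H3K27me3, and in the knockout the reverse. The H3K27me3 change chose the window, and the fall in H2AK119ub was shared with the whole table. Both knockout libraries of H2AK119ub lay below both wild-type libraries in 99.3% of all regions.

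The KDM4C window was the longest, at 1400 kb, and the most sparsely covered. Its first 489.6 kb and last 169.2 kb held no region, and the 18 regions between 7189601 and 7930800 on chromosome 9 covered 123.2 kb. H3K27me3 over them summed to 1035 and 858 in the knockout and 248 and 319 in wild type, a ratio of 3.34. The equal lengths before and after the window had ratios of 1.41 and 0.605, on 23 and 5 regions. Log2 fold changes of those tested ran from -0.94 to 1.63 before it and from -3.80 to 1.74 after it. The rest of chromosome 9 had a ratio of 1.43.

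By log2 fold change the highest KDM4C region was the narrow one from 7929201 to 7930800 (1.6 kb), with 20 and 12 normalized counts in the knockout and 2 and 0 in wild type, so that its log2 fold change of 3.25 rests on very few wild-type counts. It lies 154.8 kb from its neighbour before it, from 7768401 to 7774400 (6 kb), which had 52 and 40 in the knockout and 18 and 20 in wild type. Better supported by counts was the region from 7464401 to 7473800 (9.4 kb), named after its values were seen, with 118 and 87 in the knockout and 7 and 18 in wild type, a log2 fold change of 3.05. The widest region of the 60, from 7497801 to 7531000 (33.2 kb), was likewise chosen after its values were seen and had 305 and 246 in the knockout and 55 and 63 in wild type. In these 4, both knockout libraries lay above both wild-type libraries, as they did in 53.3% of all regions. The smallest change was in the region from 7268801 to 7272600 (3.8 kb), with 29 and 12 in the knockout and 10 and 24 in wild type, where the groups overlapped. The region densest in wild-type H2AK119ub, from 7538601 to 7544000 (5.4 kb), had 42 and 45 of H3K27me3 in the knockout and 11 and 11 in wild type.

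**Figure D3:**
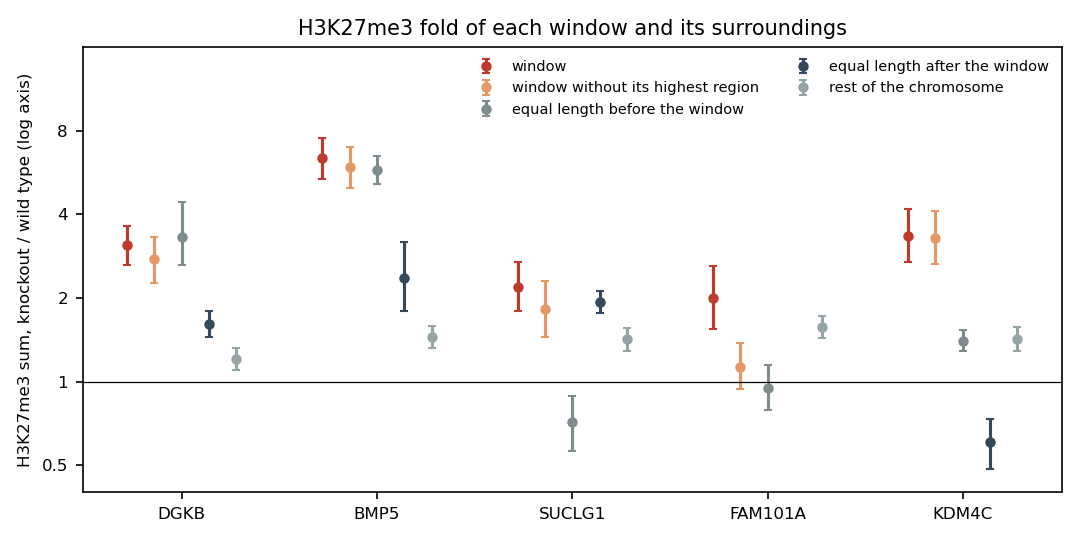
Ratio of summed H3K27me3, knockout over wild type (vertical axis, logarithmic), for each window, for the window without its highest region, for the equal lengths before and after it, and for the rest of its chromosome (horizontal axis, by window). Points give the ratio of the means of 2 libraries and bars the range over the 4 pairs of libraries; the BMP5 window stands at 6.37 with 5.77 before it, the FAM101A window drops to 1.13 without its highest region, and no region lay in the equal length after the FAM101A window.

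Just outside the windows, H3K27me3 changes went both ways, and the median log2 fold change of all tested regions was 0.58. The nearest region outside had a log2 fold change of 1.16 before and 1.17 after the DGKB window, 1.65 and 2.01 around the BMP5 window, 1.85 and -0.06 around the SUCLG1 window, -0.56 and -0.38 around the FAM101A window, and 1.10 and 1.74 around the KDM4C window. The regions just inside had 1.74 and 1.36 (DGKB), 1.94 and 2.69 (BMP5), -0.08 and 1.07 (SUCLG1), -0.50 and 3.21 (FAM101A), and 1.17 and 3.25 (KDM4C). These outer regions lay between 5 kb and 1159.4 kb from the nearest region inside.

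H2AK119ub was lost from the windows in the knockout as it was elsewhere. Of the 60 regions, 29 passed the filter, and all 29 fell (limma, Benjamini-Hochberg adjusted p from 0.000192 to 0.0151), where 100.0% of all tested regions, 23699 of 23700, were called lower. The share is that of the whole table and is no feature of these windows. All 29 passed through their wild-type values, which favours a lower call; without the filter 58 of 60 were called lower, and 33846 of 34701 in the whole table. With the libraries scaled to each other by median-of-ratios factors or by column totals, 15 of the 29 were called lower, where 10425 and 10156 of the 23700 were. These scalings divided knockout libraries by 0.0952 to 0.137 and wild-type libraries by 7.06 to 10.4, which takes out most of a loss shared by all regions. The median log2 fold change of all tested regions went from -4.74 to -1.40 and -1.14. Under either scaling 1 was called higher, where 168 and 431 of the 23700 were: the KDM4C region from 7768401, with 1 and 1 counts in the knockout and 12 and 10 in wild type. Without wild-type replicate 1 or replicate 2, 16 of the 29 were called lower, where 12401 and 12382 of the 23700 were. In the knockout 40 of the 60 regions were at 0 in both libraries, as were 18968 of all 34703.

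Summed over the windows, knockout H2AK119ub amounted to 1 and 2 normalized counts in the DGKB window, against 172 and 203 in wild type. In the BMP5 window there were 3 and 3 in the knockout and 90 and 185 in wild type. In the SUCLG1 window there were 3 and 4 in the knockout and 309 and 332 in wild type. The FAM101A window held 1 and 0 in the knockout and 138 and 139 in wild type. The KDM4C window held 6 and 4 in the knockout and 261 and 355 in wild type. Knockout libraries lay below wild-type libraries in each window, and the two-sided exact permutation p was 0.333 in each (0.333 after adjustment over the 5 windows), the smallest that 2 against 2 libraries allow. Every region of the 5 windows, whether or not it gained H3K27me3, had at most 2 counts of H2AK119ub in any knockout library. The median knockout density of all regions was 0. In the SUCLG1 region from 84601401, which was lower in H3K27me3, H2AK119ub was 1 and 0 in the knockout. In the DGKB region from 14620601 to 14631800 H2AK119ub was 0 and 0 in the knockout and 10 and 11 in wild type (limma adjusted p = 0.000192). In the FAM101A region from 124777801 to 124784800 it was 0 and 0 in the knockout and 65 and 60 in wild type (0.000207). The KDM4C region from 7464401 to 7473800 kept 2 and 0 in the knockout, against 14 and 23 in wild type (0.0151).

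Wild-type H2AK119ub over the windows was low except in the FAM101A window. The density over all 60 regions was 2.57 ± 0.407 normalized counts per kb (SD, n = 2), and over all other regions 3.74 ± 0.447 (SD, n = 2). By window it was 2.09 ± 0.245 for DGKB, 1.67 ± 0.817 for BMP5, 2.90 ± 0.147 for SUCLG1, 7.37 ± 0.0376 for FAM101A and 2.50 ± 0.540 for KDM4C (SD, n = 2 each). All 13 BMP5 regions lay below the median of all regions (3.22), as did 8 of 12 for DGKB, 9 of 14 for SUCLG1, 16 of 18 for KDM4C and 1 of 3 for FAM101A. With 2 wild-type libraries these differences were not tested. FAM101A stood above the others by more than their spread, while neighbours in the order SUCLG1, KDM4C, DGKB and BMP5 differed by no more than theirs. The windows share the libraries, and each library gave that order. The densities were 2.79, 2.12, 1.92 and 1.09 in wild-type replicate 1, and 3.00, 2.88, 2.27 and 2.25 in replicate 2. The BMP5 value is the least certain, since wild-type replicate 2 held 2.06 times as much as replicate 1 there, against 1.18 times over all regions.

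**Figure D4:**
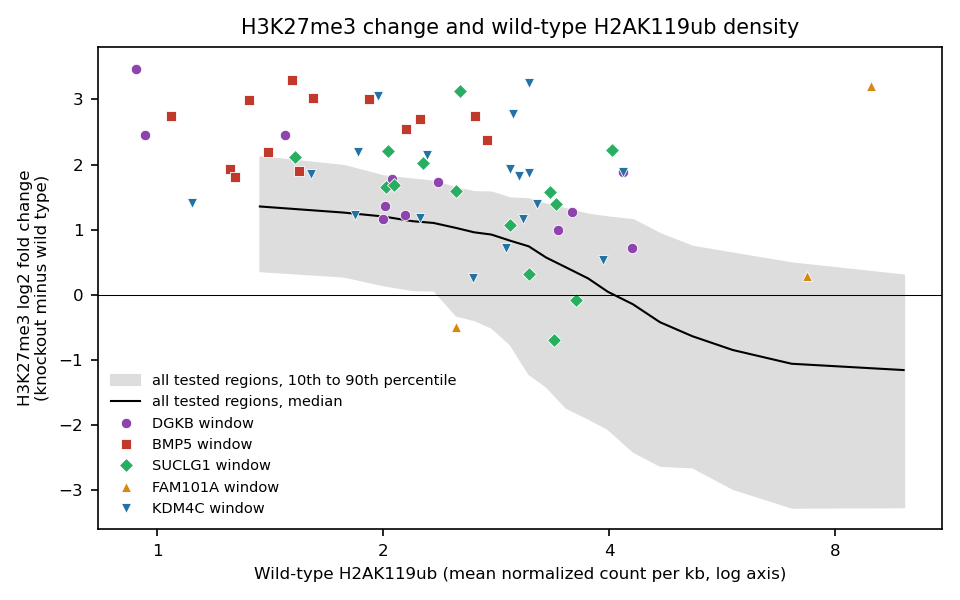
H3K27me3 log2 fold change (knockout minus wild type, vertical axis) against wild-type H2AK119ub density (mean normalized counts per kb, horizontal axis, logarithmic) for the 60 regions, with symbols by window. The black line and grey band give the median and the 10th to 90th percentile of all tested regions in 20 equal bins of H2AK119ub density. The FAM101A region at 8.93 lies at 3.21, far above the band, where the median of all regions is below 0. The windows were chosen by this log2 fold change, so nothing is read from that height.

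Over the 60 regions Spearman's rho of wild-type H2AK119ub density with the H3K27me3 log2 fold change was -0.403, and it was -0.615 over all 32209 tested regions. The windows were chosen by that log2 fold change, which narrows its range, so the sizes of these coefficients are not compared. Inside single windows it was -0.622 over the 12 DGKB regions, 0.203 over the 13 BMP5 regions, -0.442 over the 14 SUCLG1 regions and -0.0454 over the 18 KDM4C regions. Regions of a window share libraries and neighbourhood, so these are descriptions. With width the rho was 0.0171 over the 60 regions, whose widths ran from 1.4 kb to 33.2 kb.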

How the data were processed

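ChIP-seq of H2AK119ub and H3K27me3 was analysed in 8 libraries, 2 per mark and genotype, grouped by sample title. Per the file headers, the authors deposited normalized counts per region, whole numbers treated here as a score; the method of that normalization, the region caller and library depth were not given in the sources used here. Per the submitters' processing notes, the tools included deepTools, bedtools, Picard, SAMtools and Bowtie2, and the build was hg19. The log2 values and p-values the authors deposited were not used, apart from a check that a log2 column equalled log2(normalized count + 0.5). Starts and ends are given 1-based.

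limma 3.58.1 in R 4.3.3 was fitted to log2(normalized count + 1) over the whole table, separately by mark, with the mean-variance trend. Regions were tested when at least 2 libraries reached 10 and the sum 15. The fit was tested on simulated data in which most regions had the wild-type level in both genotypes. Knockout H2AK119ub lay far below that level, so the simulation does not bear on the H2AK119ub calls. Total normalized counts ran from 17159 to 20938 in knockout and from 1575661 to 1866278 in wild type for H2AK119ub, and from 3224813 to 3788824 in knockout and from 2393140 to 2456126 in wild type for H3K27me3. Named regions are, per window, the highest and lowest H3K27me3 log2 fold change, the neighbours of the highest, and the densest in wild-type H2AK119ub, or all regions of a window with few. The windows and these rules were chosen with earlier results of these data known. Alternatives were another pseudocount, other scalings, no filter, a replicate block, other window membership, and each library left out; leaving out wild-type libraries for H2AK119ub density was added after seeing the data.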

Additional observations from a re-analysis of the deposited data

How the results depend on the processing

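Scaling the libraries to each other moved the median H3K27me3 log2 fold change of all regions by -0.50 (median-of-ratios factors) and -0.51 (column totals), and the window ratios with it, to 2.17 and 2.14 for DGKB, 4.45 and 4.40 for BMP5, 1.54 and 1.52 for SUCLG1, 1.40 and 1.38 for FAM101A, and 2.34 and 2.31 for KDM4C. All regions called higher then numbered 9860 and 9614, against 15228 unscaled, and 2 window regions were called lower under either. For H2AK119ub the calls lower were 10425 and 10156 of all regions and 15 and 15 of the window regions; without the filter 58 window regions and 33846 of 34701 regions were called. Scaled up, the few knockout counts put the BMP5 sum at 132.6% and 203.6% of wild type (exact permutation p = 0.667 and 0.333) and the KDM4C sum at 151.9% with column totals (0.333); the knockout values behind them are 3 and 3, and 6 and 4. Reversed region values, as log2 fold changes with median-of-ratios factors and column totals, were -0.22 and -0.24 for the FAM101A region from 124761601, -0.23 and -0.25 for the KDM4C region from 7268801, 1.84 and 2.28 for H2AK119ub in the KDM4C region from 7768401, and, with column totals, 0.014 in that from 7538601. Leaving out each library, the KDM4C region from 7268801 ranged from -0.35 to 0.86 and the FAM101A region from 124750801 from -1.36 to 0.36. Without its highest region the FAM101A window had a ratio of 1.13 and a wild-type H2AK119ub density of 6.44.

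Leaving out each library in turn, window regions called higher in H3K27me3 ranged from 0 to 26 and those called lower were 0 each time, all regions called higher from 0 to 8148 and lower from 0 to 4262; window regions called lower in H2AK119ub ranged from 16 to 29 and all regions from 12382 to 23686. The prior degrees of freedom for H3K27me3 were 1.09 to 1.40 with 3 libraries, against 107 with all 4. Window ratios of H3K27me3 ranged from 2.80 to 3.42 (DGKB), 5.71 to 7.03 (BMP5), 1.97 to 2.48 (SUCLG1), 1.76 to 2.32 (FAM101A) and 2.97 to 3.82 (KDM4C). Same-numbered libraries did not deviate together (correlation -0.000149 for H2AK119ub and 0.0112 for H3K27me3), and the replicate block left 29 and 52 window regions called lower in H2AK119ub and higher in H3K27me3, as without it. A pseudocount of 0.5 changed neither count. The cause of the other shifts was not tested. The pseudocount, the filter and the block do not enter the window sums.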
